A study of Mus musculus with 151 samples.

Results

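Figla, Nobox, Sohlh1, Sohlh2, Lhx8, Taf4b and Tbpl2 are transcription factors of the oocyte in the primordial follicle. The rule is a list of names and uses no measured value, although the list was drawn up with earlier results of these data known, and all 7 of 7 were found among the 35976 gene names of each of the 7 count tables. Counts came from female mice conceived by natural mating (Natural) or by in vitro fertilization with embryo culture and transfer (IVF), all from CF-1 mothers and B6/SJL fathers. Natural embryos developed in mated females, and IVF embryos came from superovulated CF-1 females, were cultured to the blastocyst in KSOM+AA at reduced oxygen and were transferred to pseudopregnant CF-1 recipients. The tables held E13.5 primordial germ cells (PGCs; 4 Natural and 5 IVF pools of sorted cells), E18.5 ovaries (4 and 6), 12-week ovaries (4 and 5), 39-week ovaries (5 and 5), 12-week single oocytes (36 and 40), 39-week single oocytes (9 and 10) and 12-week cumulus cells (5 and 5). The E18.5 libraries came from whole gonads and the adult libraries from part of an ovary, the adult females had been delivered by caesarean section and raised by foster dams, the oocytes came from superovulated females, and 1 Natural ovary of the 39-week group carries a tissue label of 40 weeks.

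Primordial follicles form around birth, when oocytes leave their nests and are each enclosed by a single layer of pregranulosa cells. FIGLA, SOHLH1 and SOHLH2 are basic helix-loop-helix proteins; FIGLA pairs with the E protein TCF3 and activates the zona pellucida genes, and SOHLH1 and SOHLH2 act upstream of Lhx8, Nobox and Figla. LHX8 is a LIM homeodomain protein and NOBOX a homeodomain protein that activates Gdf9 and Pou5f1. TAF4B is a germ cell and gonadal subunit of the general factor TFIID, and TBPL2 (also TBP2 or TRF3) replaces the TATA-binding protein in the growing oocyte. These roles are background.

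Because FIGLA, SOHLH1 and SOHLH2 bind E-boxes, a 250-base window from a promoter annotation is shown for Figla, Nobox, Sohlh1, Lhx8 and Tbpl2. The window of Sohlh2 was searched too and is not printed. Sequences are from RefSeq (GRCm38.p6, 5′ to 3′ on the gene's strand, E-boxes in capitals). The windows of Sohlh1, Sohlh2, Lhx8 and Tbpl2 lie directly upstream of the annotated gene. Those of Figla and Nobox lie inside the annotated genes (chr6:86016494-86020996 and chr6:43303674-43310072). The motifs searched were the E-box CANNTG, the NOBOX-type motif TAATTG with its second form TAATTA and the LHX8-type motif TGATTG, each on both strands with overlaps counted. Of the 7 members, 6 had an entry.
Figla (chr6:86016941-86017190, plus strand): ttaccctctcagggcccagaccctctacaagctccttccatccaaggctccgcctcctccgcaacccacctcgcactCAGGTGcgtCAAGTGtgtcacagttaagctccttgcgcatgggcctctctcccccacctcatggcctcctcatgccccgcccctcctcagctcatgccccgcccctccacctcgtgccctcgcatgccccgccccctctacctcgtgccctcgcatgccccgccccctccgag
Nobox (chr6:43309555-43309804, minus strand): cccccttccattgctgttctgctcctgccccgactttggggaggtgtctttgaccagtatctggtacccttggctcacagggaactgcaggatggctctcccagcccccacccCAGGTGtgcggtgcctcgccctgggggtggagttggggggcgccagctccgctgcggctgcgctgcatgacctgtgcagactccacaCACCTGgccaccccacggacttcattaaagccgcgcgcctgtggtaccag
Sohlh1 (chr2:25847249-25847498, minus strand): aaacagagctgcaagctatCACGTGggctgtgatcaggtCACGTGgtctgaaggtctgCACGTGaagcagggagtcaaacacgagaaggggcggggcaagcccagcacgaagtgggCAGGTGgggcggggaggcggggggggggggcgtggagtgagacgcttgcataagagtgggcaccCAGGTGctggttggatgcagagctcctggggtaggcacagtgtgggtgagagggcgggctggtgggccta
Lhx8 (chr3:154330561-154330810, minus strand): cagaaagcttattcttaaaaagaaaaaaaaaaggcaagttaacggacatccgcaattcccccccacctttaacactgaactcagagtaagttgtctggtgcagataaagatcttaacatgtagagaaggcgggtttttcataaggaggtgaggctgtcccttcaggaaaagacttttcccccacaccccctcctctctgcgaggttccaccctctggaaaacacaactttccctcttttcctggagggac
Tbpl2 (chr2:24096596-24096845, minus strand): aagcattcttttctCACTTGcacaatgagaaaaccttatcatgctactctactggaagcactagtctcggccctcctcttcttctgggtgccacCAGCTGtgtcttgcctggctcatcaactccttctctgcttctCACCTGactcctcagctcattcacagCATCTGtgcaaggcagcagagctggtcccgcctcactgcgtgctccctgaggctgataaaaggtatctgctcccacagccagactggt
Sohlh1 held 5 E-boxes, Tbpl2 4, Figla and Nobox 2 each, Sohlh2 1 and Lhx8 0. An E-box was present in 66.2% of the 32851 windows of this length, so that its presence alone set no member apart, while 1.15% of the windows held 5 or more and 3.84% held 4 or more. NOBOX-type letters (11.3% of all windows) and LHX8-type letters (12.7%) were in none of the 6 members' windows, which says only that these letters are not in these 250 bases.

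Libraries held between 839781 and 43363800 counts. Values are counts per 1000000 counts of a library (CPM), and tests used edgeR's quasi-likelihood fit with Benjamini-Hochberg adjustment over all genes of a table; a gene was called at an adjusted p below 0.05. The labels name no litter or donor; the study's methods describe the ovaries as coming from different litters, and elsewhere p-values measure the spread between samples that may share a litter or a female. In the E18.5 ovaries Natural 3, IVF 2 and IVF 4 the 8 germ cell markers summed to 201 to 293 CPM, against 464 CPM or more in the other 7, and 10 of 76 oocytes at 12 weeks and 2 of 19 at 39 weeks held under 1000 CPM of Gdf9, where the others held 11063 CPM or more. In ovaries, fewer oocytes and less RNA per oocyte cannot be told apart.

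The 7 genes were detected at different stages. In E13.5 PGCs Sohlh2 and Taf4b were abundant and the other 5 were not. Sohlh2 measured 212, 172, 123 and 67.1 CPM in the Natural libraries and 190, 136, 186, 170 and 246 CPM in the IVF libraries. Taf4b measured 141, 185, 108 and 134 CPM in Natural and 162, 161, 166, 107 and 164 CPM in IVF PGCs. Both groups overlapped for both genes, and the PGCs carried the germ cell markers Ddx4 and Dazl in every library and the granulosa marker Foxl2 in none. Other granulosa markers were present at low levels. The 12 granulosa and pregranulosa markers summed to 2.32 to 30.1 CPM in Natural and 4.71 to 15.4 CPM in IVF PGCs, with 3 of the 12 at 0 throughout each group.

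The other members were close to the limit of detection in PGCs. Nobox reached 3.46 CPM and Lhx8 1.66 CPM in their highest library, both in IVF. Tbpl2 had a count of 0 in all 9 libraries. Figla stood at 15.8 CPM and Sohlh1 at 2.24 CPM in Natural library 2, against 2.84 CPM or less of Figla and 0.231 CPM or less of Sohlh1 in the other 8. That library also held 792 CPM of Stra8, the gene of meiotic entry (named after its values were seen), against 0 to 204 CPM in the other 8, and the part of its stage in the Figla and Sohlh1 values was not tested.

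In the E18.5 ovary, just before primordial follicles form, all 7 genes were detected. Per kilobase of annotated exon, the median levels in Natural ovaries ran from 80.1 CPM for Sohlh1, 72.9 for Figla and 49.0 for Nobox through 14.6 for Lhx8 and 11.1 for Sohlh2 to 3.72 for Taf4b and 2.64 for Tbpl2. On this scale the ranges of neighbours in that order overlapped, other than those of Nobox and Lhx8. Tbpl2, the factor of growing oocytes, was the lowest of the set by this scale in both groups, at 0.568 in IVF ovaries.

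By 12 weeks the whole-ovary picture had turned. Nobox and Taf4b were the highest per kilobase, with medians of 4.21 and 1.99 in Natural and 5.36 and 3.28 in IVF ovaries, and Sohlh2 and Tbpl2 were the lowest. In isolated 12-week oocytes, counts were summed over the oocytes of each set, a set being the oocytes whose library names share their first fields (5 sets in each group); the labels do not tie a set to 1 female, so that sets are not known to be independent animals. Nobox was the highest per kilobase there too, with a median of 28.2 CPM per kilobase in Natural and 33.6 in IVF sets. Tbpl2 (10.9 and 10.6) and Lhx8 (10.7 and 11.7) overlapped in range, Taf4b (6.03 and 6.08) and Sohlh2 (5.84 and 6.31) lay below, Figla (1.98 and 2.68) lower still, and Sohlh1 had a median of 0.

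**Figure D1:**
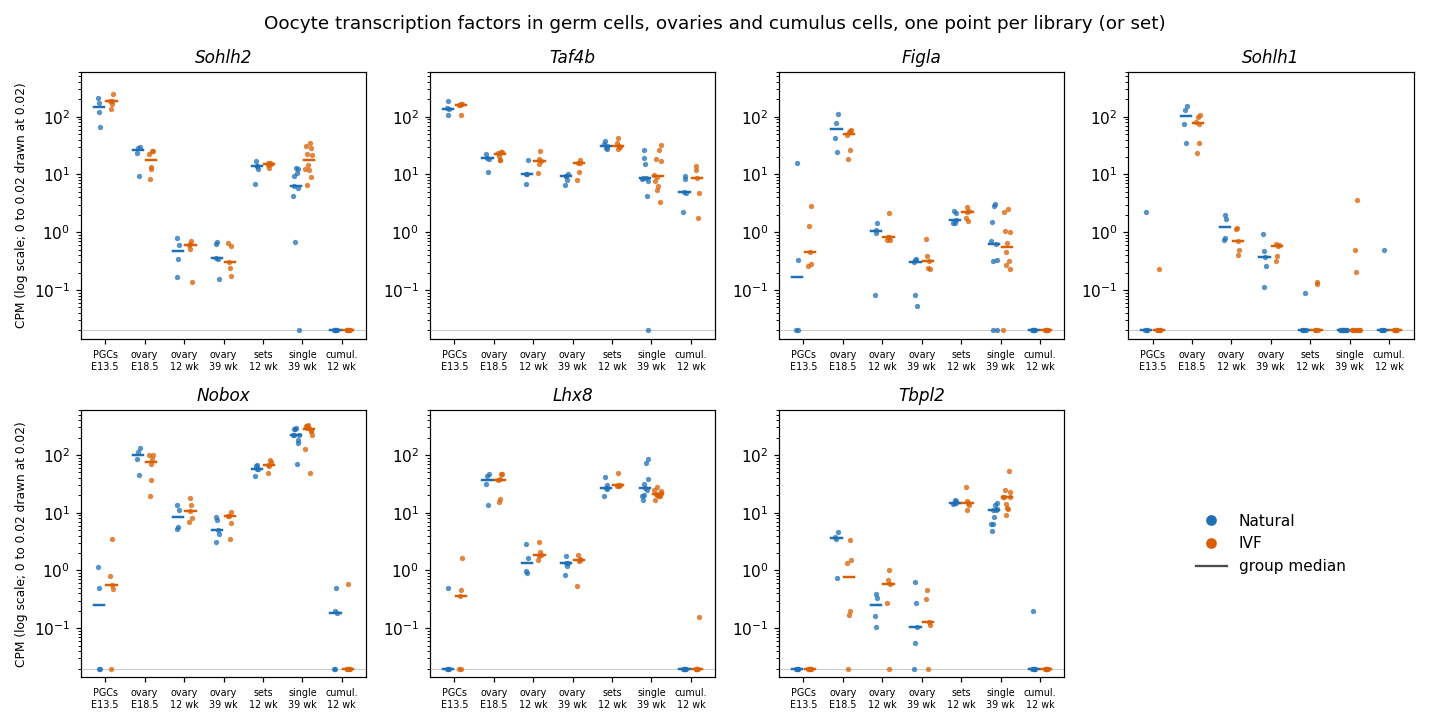
CPM of each gene (log axis; values up to 0.02 drawn at 0.02) in every PGC pool, ovary, 12-week oocyte set, 39-week oocyte and cumulus library; points are libraries or sets and bars are group medians. Sohlh2 and Taf4b are highest in PGCs and are still present in oocytes. Figla and Sohlh1 peak in the E18.5 ovary, and Nobox, Lhx8 and Tbpl2 are higher in oocytes than in PGCs.

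The change from PGCs to oocytes was tested between 9 PGC libraries and 10 oocyte sets; age and cell isolation go together and cannot be told apart. Nobox, Lhx8 and Tbpl2 rose in both groups and Figla was called in IVF, 3 of the 6 tested members in Natural (38.9% of all genes rose) and 4 of 6 in IVF (40.8%). Nobox went from a pooled 0.422 CPM in Natural PGCs to 57.0 CPM in Natural oocytes, and from 1.18 to 67.7 CPM in IVF (fitted log2 changes 8.91, SE 0.73, and 7.68, SE 0.59). Lhx8 went from 0.169 to 28.3 CPM in Natural and from 0.537 to 31.6 CPM in IVF (9.26, SE 0.71, and 7.73, SE 0.55), from 4 and 20 PGC counts. All 4 Natural counts were in library 2, and without it, with Lhx8 at 0 in the other Natural PGCs, the fitted change was 12.93, a value that depends on the prior count. Tbpl2 was 0 in PGCs and 15.1 and 17.7 CPM in oocytes, at least 119-fold higher in Natural and at least 219-fold higher in IVF when 3 counts over the PGC group are taken as the floor.

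Sohlh2 fell in both groups, with log2 changes of -1.73 (SE 0.31, adjusted p = 3.3e-05) in Natural and -1.88 (SE 0.30, adjusted p = 6.9e-06) in IVF, where 37.2% and 35.3% of all genes fell. Taf4b was called lower in IVF (log2 change -0.46, SE 0.18, adjusted p = 0.025) and not in Natural (-0.31, SE 0.19, adjusted p = 0.13), a difference between groups that was not tested; with RLE size factors it was called lower in Natural too (-0.45, adjusted p = 0.031). The scaling of these 2 kinds of library matters: edgeR's TMM factors ran from 1.503 to 2.49 in PGCs and from 0.462 to 0.733 in oocytes, and with library totals alone the median gene shifted by -1.96 in Natural and -1.67 in IVF. On that scale Taf4b was called lower in both groups (-2.16 and -2.19) and Figla in neither (-1.20 and 1.04). Figla in Natural also depended on PGC library 2: its log2 change was 0.95 (adjusted p = 0.35) with it and 5.43 (adjusted p = 2.7e-05) without it.

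From the E18.5 to the 12-week ovary, 6 of 7 members fell in Natural and 5 of 7 in IVF, where 24.3% and 28.2% of all genes fell. The largest falls were those of Sohlh1, Figla and Sohlh2, the bHLH members. Sohlh1 went from 35.5 to 153 CPM over 4 Natural E18.5 ovaries to 0.75 to 2.01 CPM at 12 weeks, a log2 change of -6.14 (SE 0.54, adjusted p = 1.0e-09); in IVF the change was -6.21 (SE 0.50, adjusted p = 8.3e-11). Figla changed by -6.03 (SE 0.60) in Natural and by -5.51 (SE 0.54) in IVF, and Sohlh2 by -5.52 (SE 0.57) and -5.06 (SE 0.51). For all 3 genes every 12-week ovary lay below every E18.5 ovary. The share of all genes that separated the ages in this way was not counted.

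The homeodomain members fell too. Lhx8 changed by -4.31 (SE 0.45) in Natural and -3.93 (SE 0.40) in IVF, and Nobox by -3.31 (SE 0.47) and -2.47 (SE 0.40), with adjusted p of 8.5e-06 or lower for each. The 95% intervals of Lhx8 and Sohlh2 overlapped in both groups, and differences between genes were not tested. Tbpl2 fell by 3.58 (SE 1.03, adjusted p = 0.0054) in Natural, while in IVF its change was -0.81 (SE 0.87, adjusted p = 0.43). The difference between those 2 Tbpl2 changes was 2.77 (SE 1.30, unadjusted p = 0.043, adjusted p = 0.34). Taf4b was not called in either group (-0.60, unadjusted p = 0.041, adjusted p = 0.076 in Natural, and -0.22, adjusted p = 0.44 in IVF). Without E18.5 Natural ovary 3 or 12-week Natural ovary 4, Taf4b was called lower in Natural (adjusted p = 0.032 and 0.0067).

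Counts of the 8 germ cell markers (Ddx4, Dazl, Mael, Tdrd1, Tdrd5, Stk31, Rnf17 and Tex14) fell over the same interval, all 8 called in Natural and 7 in IVF, with median log2 changes of -4.05 and -4.01 and single genes from -5.54 to -0.28. When their summed counts replaced the library size, the median of all genes shifted to 3.47 in Natural and 2.96 in IVF, and 1.18% and 2.07% of genes were called lower and 91.2% and 88.1% higher. On this scale Sohlh1 (-2.53 and -3.03), Figla (-2.43 and -2.30) and Sohlh2 (-1.95 and -1.87) were still called lower in both groups, relative to the germ cell markers. Nobox was not called (0.24 and 0.64), Lhx8 was called in IVF (-0.81, adjusted p = 0.021) and not in Natural (-0.71, adjusted p = 0.070), and Taf4b was called higher (2.94 and 2.69). Tbpl2 stood at 0.04 in Natural, not called, and at 2.40 in IVF (adjusted p = 0.0065). Taf4b was also measured in cumulus libraries, and the part of somatic cells in its whole-ovary level was not tested.

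**Figure D2:**
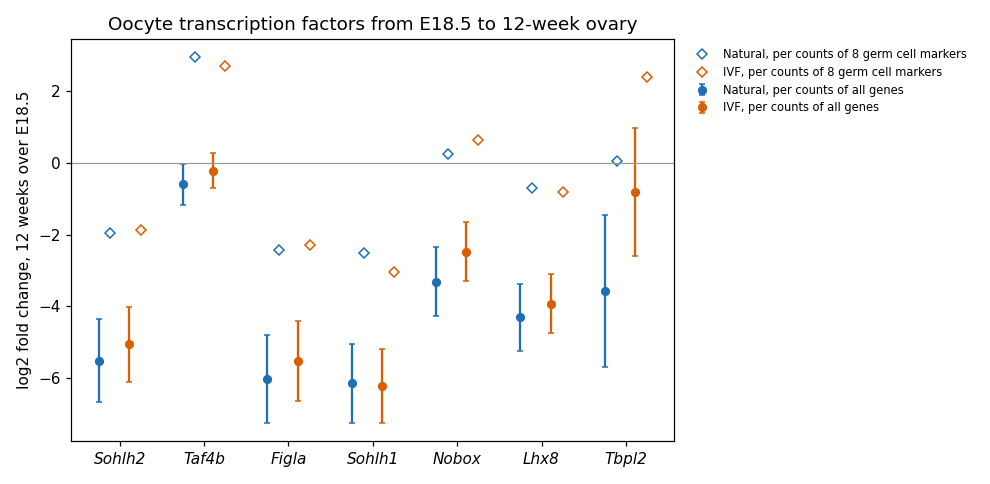
log2 fold change from E18.5 to 12-week ovary for each gene and group; filled circles are scaled to all genes with 95% confidence intervals from edgeR, and open diamonds are scaled to the summed counts of 8 germ cell markers. Sohlh1, Figla and Sohlh2 lie below 0 on both scales and Taf4b lies above 0 on the second.

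From 12 to 39 weeks 2 of 7 members fell in Natural ovaries and 0 were called in IVF, and the log2 changes of all 7 lay below 0 in both groups. In Natural ovaries Figla fell from 0.08, 0.98, 1.10 and 1.47 CPM to between 0.05 and 0.34 CPM (log2 change -1.997, SE 0.60, adjusted p = 0.019) and Sohlh1 fell from 0.75, 2.01, 0.79 and 1.71 CPM to between 0.11 and 0.92 CPM (-1.52, SE 0.52, adjusted p = 0.038), where 11.6% of all genes fell. For both genes the ages overlapped in CPM. The 39-week Natural ovaries held 2 to 10 counts of Figla and 2 to 18 counts of Sohlh1 each, and halved counts were not tried on the age changes. The 7 oviduct and epithelium markers summed to 3504 to 8075 CPM in Natural ovaries at 12 weeks and to 62.4 to 233 CPM at 39 weeks. In IVF ovaries they summed to 93.7 to 3271 CPM and to 64.5 to 8788 CPM. From 12 to 39 weeks all 7 were called lower in Natural and 0 were called in IVF, and the part of this tissue in the age changes was not tested. Leaving out 1 ovary at a time gave adjusted p of 0.0053 to 0.080 for Figla, lost without 12-week ovary 4 (0.080) or 39-week ovary 5 (0.064), and of 0.015 to 0.13 for Sohlh1, lost without 12-week ovary 2 or 4 or 39-week ovary 2, 3, 4 or 5. In IVF ovaries 0 of 7 members were called by edgeR or DESeq2, 0 had an unadjusted edgeR p below 0.05, and 1.96% of all genes fell; Figla changed by -1.12 (SE 0.56, adjusted p = 0.25). The difference between the Natural and IVF changes from 12 to 39 weeks was called for 0 of 7 members by edgeR's interaction test (2.71% of genes called), 0 by DESeq2 and 0 at an unadjusted p below 0.05. From E18.5 to 12 weeks it was called for 0 of 7 by edgeR (0.314% of genes called) and DESeq2, and 1, Tbpl2, had an unadjusted p below 0.05.

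Natural and IVF were then compared within each tissue. All 10 fetal ovaries are labelled E18.5, and the study's model figure and tissue collection methods give E18.5 for both groups. Its methods on caesarean delivery place the sections of IVF pregnancies a day after those of Natural pregnancies. If that held for these ovaries, stage and conception could not be told apart. At E18.5, 0 of 7 members were called by edgeR, where 5.43% of 16415 genes were, 0 of 7 had an unadjusted p below 0.05 and DESeq2 called 0. Of the 7 log2 changes 6 lay below 0 (from -1.62 to 0.22, median -0.50, against 0.00 for all genes), and the members share the germ cell content of 10 ovaries. On TMM-scaled values, 8.61% of all genes and 0 of 7 members did not overlap between groups. Without the 3 ovaries low in germ cell markers 0 of 7 were called (adjusted p from 0.29 to 0.96). In that fit 2 of 7 had an unadjusted p below 0.05 (Figla, p = 0.044, and Nobox, p = 0.049, by edgeR). The share of all genes with such a p was not counted. The log2 changes ran from -1.41 for Tbpl2 to 0.08 for Taf4b. Leaving these 3 ovaries out was not planned beforehand, and they are also low in most of the members.

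Figla measured 43.2, 78.7, 24.4 and 112 CPM in Natural ovaries and 18.9 to 59.1 CPM with a median of 51.1 in the 6 IVF ovaries. The 2 highest Natural ovaries exceeded every IVF ovary, and the lowest 3 of the 10 were the ovaries low in germ cell markers. The log2 change, IVF over Natural, was -0.58 (SE 0.37, adjusted p = 0.36), and its 95% interval reached from 0.38-fold to 1.16-fold.

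Sohlh1 measured 74.5, 132, 35.5 and 153 CPM in Natural and 23.5 to 106 CPM (median 78.4) in IVF, a change of -0.52 (SE 0.41, adjusted p = 0.47). Nobox measured 86.5, 111, 45.9 and 134 CPM in Natural and 19.5 to 98.8 CPM (median 77.2) in IVF, a change of -0.50 (SE 0.38, adjusted p = 0.44). Sohlh2 measured 23.3, 29.2, 9.39 and 30.5 CPM against 8.30 to 25.3 CPM (median 17.8), a change of -0.41 (SE 0.33, adjusted p = 0.48). In each of these the Natural median was the higher and the groups overlapped.

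Lhx8 showed the closest means, 33.7 ± 14.9 CPM (SD, n = 4) in Natural and 33.6 ± 14.2 CPM (SD, n = 6) in IVF ovaries, with a log2 change of -0.03 (95% interval 0.58-fold to 1.65-fold). Taf4b measured 22.8, 19.5, 10.9 and 18.8 CPM in Natural and 17.5 to 24.7 CPM in IVF, a change of 0.22 (SE 0.19, adjusted p = 0.50). Tbpl2 measured 3.81, 3.46, 0.74 and 4.72 CPM in Natural and 1.37, 0.00, 0.17, 0.20, 3.43 and 1.53 CPM in IVF ovaries. Its log2 change of -1.62 (SE 0.80, unadjusted p = 0.063, adjusted p = 0.24) was the largest of the 7, and its 95% interval ran from 0.10-fold to 1.07-fold.

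**Figure D3:**
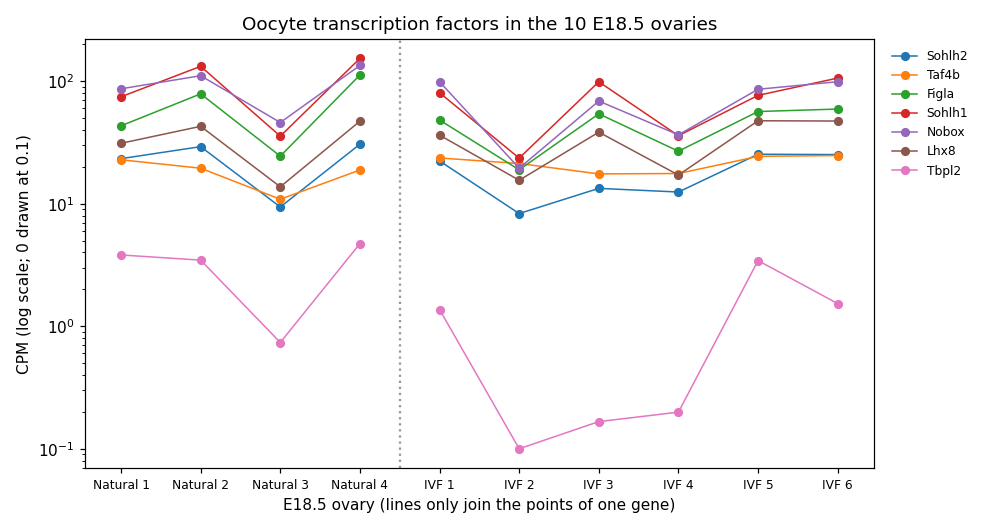
CPM (log axis; 0 drawn at 0.1) of the 7 genes in each of the 10 E18.5 ovaries, 4 Natural and 6 IVF; lines join the points of one gene. Natural 3, IVF 2 and IVF 4 are low in most of the genes at once, and Taf4b varies least.

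Among the 10 E18.5 ovaries the members other than Taf4b moved together. Pearson's r of log2 CPM was 0.98 for Figla with Sohlh1 and 0.69 or higher for each pair among Figla, Nobox, Sohlh1, Sohlh2, Lhx8 and Tbpl2. Pairs with Taf4b gave 0.26 to 0.56 (0.46 to 0.74 after group means were removed). Outside the set, the 5 genes closest to the members' mean were Med17 (r = 0.982), Tdrd5 (0.981), Mbl2 (0.977), Klhl21 (0.974) and Ippk (0.973); with group means removed they were Tdrd5, Piwil2, Zc3h14, Med17 and Mbl2 (0.978 to 0.990). The correlations describe 10 ovaries whose germ cell markers summed to between 201 CPM (Natural 3) and 665 CPM (IVF 6). The part of this varying germ cell content in the correlations was not tested.

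The members were also set against the summed counts of the 8 germ cell markers in each E18.5 ovary. Nobox made 18.6, 20.3, 22.9 and 22.8 counts per 100 marker counts in Natural ovaries and 7.03 to 15.7 in the 6 IVF ovaries. Sohlh2 made 4.67 to 5.36 in Natural and 2.66 to 4.24 in IVF. For these 2 of 7 members every IVF ovary lay below every Natural ovary, where 1.70% of all genes did not overlap on this scale and 1.30% lay lower in IVF. Figla (9.30 to 19.0 against 6.81 to 10.8), Sohlh1 (16.0 to 26.0 against 8.49 to 19.7), Lhx8 (6.69 to 7.99 against 5.60 to 7.66), Tbpl2 (0.366 to 0.821 against 0 to 0.536) and Taf4b (3.19 to 5.41 against 3.497 to 7.67) overlapped.

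Neither difference passed the test on this scale: edgeR with the marker counts as library size gave a log2 change of -0.72 for Nobox (unadjusted p = 0.10, adjusted p = 1.00) and -0.52 for Sohlh2 (unadjusted p = 0.25, adjusted p = 1.00), and Tbpl2 stood at -1.82 (unadjusted p = 0.0046, adjusted p = 0.28). Dazl, itself one of the 8 markers, measured 33.8 to 78.0 CPM in Natural and 71.7 to 126 CPM in IVF ovaries (log2 change 0.65, adjusted p = 0.10). Without Dazl among the markers, Nobox still did not overlap (21.3 to 27.5 against 9.48 to 19.6), and Sohlh2 did (5.62 to 6.25 against 3.16 to 5.65), with 1.45% of all genes not overlapping.

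Of 17 tested downstream oocyte genes, 7 fell in IVF and 0 rose (2.75% of all genes fell and 2.67% rose), with a median log2 change of -1.94 against 0.00 for all genes. Zp3 (-3.14, SE 0.81, adjusted p = 0.040) and Zp1 (-3.01, SE 0.65, adjusted p = 0.022), which encode zona pellucida proteins, Nlrp14 (-2.68, SE 0.70, adjusted p = 0.041) and Ooep (-2.66, SE 0.61, adjusted p = 0.026) had the largest changes. Gdf9, the oocyte growth factor and a NOBOX target, changed by -2.14 (SE 0.48, adjusted p = 0.026). Without the 3 ovaries low in germ cell markers 2 of 17, Zp1 and Padi6, fell, with a list median of -1.81 (0.0781% of all genes called), and per germ cell marker counts 11 of 17 fell (0.737% of all genes called). Of 16 tested partners and relatives of the members, 3 rose and 0 fell: Taf7l, a TAF7 paralogue of germ cells (1.17, SE 0.22, adjusted p = 0.015), Taf9b (0.85, SE 0.20, adjusted p = 0.028) and the E protein gene Tcf12 (0.54, SE 0.13, adjusted p = 0.034). Tcf3, the partner of FIGLA, Ldb1, a cofactor of LIM proteins, Taf4 and Tbp had log2 changes of -0.06, 0.02, 0.02 and -0.04 and were not called. On either of those alternatives 0 of the 16 partners were called. Genes of meiotic prophase moved the other way: of 18 tested 3 rose and 0 fell, namely Meioc (2.16, SE 0.39, adjusted p = 0.014), Sycp2 (1.496, SE 0.20, adjusted p = 0.0085) and Tex15 (0.93, SE 0.20, adjusted p = 0.023). Of the 18, 14 lay above 0 with a median of 0.55, and the list summed to 533 to 953 CPM in IVF against 299 to 711 CPM in Natural ovaries. Without the 3 ovaries low in germ cell markers 0 of the 18 were called (median 0.50), and per germ cell marker counts 1, Meioc, rose. IVF ovaries also held more erythroid RNA, with a sum over the 7 erythroid markers of 1659 to 4653 CPM against 589 to 1599 CPM in Natural. The part of these cells and of the meiotic stage in the values was not tested.

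In the adult ovary the members were low and 0 were called. At 12 weeks 0 of the 6 tested members were called by edgeR (0.00567% of genes called), 0 had an unadjusted p below 0.05 and DESeq2 called 0. Nobox measured 5.18, 13.8, 5.67 and 11.3 CPM in Natural and 7.01, 10.8, 18.3, 13.4 and 7.96 CPM in IVF ovaries, a log2 change of 0.31 (SE 0.37, adjusted p = 0.72). Sohlh1 stood at -0.68 (SE 0.46, adjusted p = 0.51), Lhx8 at 0.33 (SE 0.40), Sohlh2 at 0.02 (SE 0.56) and Figla at -0.01 (SE 0.60), with intervals as wide as 0.39-fold to 2.49-fold for Figla. Tbpl2, at 1.03 CPM or less, was not tested. The downstream oocyte genes, lower in IVF at E18.5, did not stay lower. Of the 20 tested at 12 weeks 19 lay above 0 (median log2 change 0.49), and of 19 at 39 weeks 15 did (median 0.35), with 0 called at either age. Their IVF effect at 12 weeks minus E18.5 was called higher for 3 of 20 and lower for 0 (0.314% of all genes called).

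Taf4b, the TFIID subunit, had the lowest unadjusted p of the members in both adult ovary tables. At 12 weeks it measured 10.4, 6.92, 10.1 and 18.1 CPM in Natural and 10.5, 15.0, 18.3, 25.7 and 16.9 CPM in IVF ovaries (log2 change 0.56, SE 0.30, adjusted p = 0.42). At 39 weeks it measured 6.52, 9.58, 9.46, 8.01 and 10.1 CPM in Natural and 7.93, 15.9, 11.1, 15.6 and 18.0 CPM in IVF ovaries. In 4 of the 5 IVF ovaries Taf4b exceeded every Natural ovary. The log2 change was 0.65 (SE 0.23, unadjusted p = 0.017), which did not pass adjustment by edgeR (adjusted p = 0.18) or DESeq2 (adjusted p = 0.067).

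At 39 weeks 0 of the 5 tested members were called (0.262% of genes called), Taf4b was the 1 member with an unadjusted p below 0.05, and DESeq2 called 0. Nobox measured 3.08 to 8.57 CPM in Natural and 3.58 to 10.4 CPM in IVF, a log2 change of 0.44 (SE 0.34, adjusted p = 0.50). Sohlh1, Sohlh2 and Lhx8 changed by 0.25, -0.14 and 0.11, and Figla and Tbpl2, at 0.75 CPM or less in every ovary, were not tested. In IVF ovaries the 12 granulosa and pregranulosa markers summed to 2121 to 5109 CPM at 12 weeks and 2185 to 4663 CPM at 39 weeks, against 1950 to 2685 and 1245 to 2815 CPM in Natural. The 7 oviduct and epithelium markers summed to 93.7 to 3271 CPM at 12 weeks in IVF against 3504 to 8075 CPM in Natural. At 39 weeks they summed to 8788 CPM in IVF ovary 1 and to 64.5 to 165 CPM in the other 4 IVF ovaries, against 62.4 to 233 CPM in Natural; all 7 lay above 0 (log2 changes 1.47 to 5.76), 0 were called by edgeR and 4 had an unadjusted p below 0.05. Without IVF ovary 1 the Taf4b change at 39 weeks was 0.78 (adjusted p = 0.076). Scaled to the germ cell markers, Taf4b was at -0.10 at 12 weeks, where the median gene shifted to -0.63, and at 0.30 at 39 weeks, where it shifted to -0.29, and was called at neither age; the part of these cells in the Taf4b values was not tested.

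**Figure D4:**
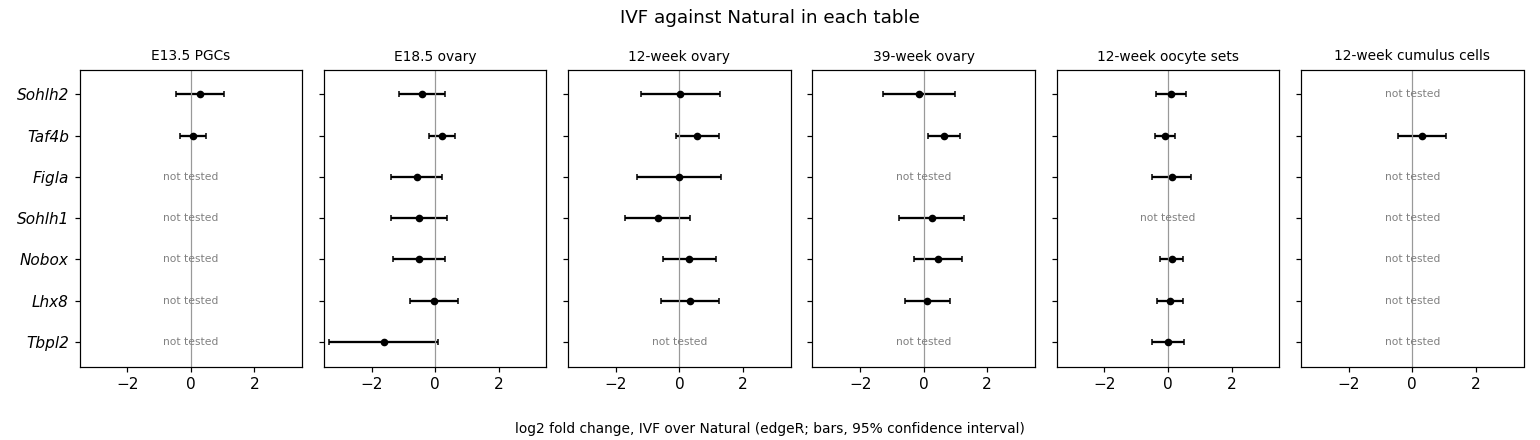
log2 fold change of IVF over Natural with its 95% confidence interval (edgeR) for each gene in each table; genes too low for the test are marked as not tested. Every interval except that of Taf4b at 39 weeks includes 0.

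In PGCs 0 of the 2 tested members were called, nor was any gene (0%); 0 had an unadjusted p below 0.05 and DESeq2 called 0. Sohlh2 changed by 0.28 (SE 0.34) and Taf4b by 0.07 (SE 0.19), adjusted p = 1.00 for both. In the 12-week oocyte sets 0 of the 6 tested members were called by edgeR (0.0277% of genes called), DESeq2 or limma, and 0 had an unadjusted p below 0.05 by edgeR. Nobox measured 44.0, 64.5, 56.8, 67.5 and 56.3 CPM in Natural and 49.1, 67.6, 65.0, 82.3 and 75.3 CPM in IVF sets, a log2 change of 0.11 (SE 0.17, 95% interval -0.25 to 0.48). The other 5 changes lay between -0.08 and 0.12, with 95% intervals inside -0.49 and 0.72.

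Within 12-week oocytes the levels of some members went with that of Gdf9. Lhx8 was 50.0 to 117 CPM (median 77.5) in the 10 oocytes with under 1000 CPM of Gdf9. It was 14.1 to 40.1 CPM (median 27.8) in the other 66, without overlap. The share of all genes without overlap here was not counted. Taf4b had medians of 53.7 and 30.2 CPM and Nobox of 105 and 59.9 CPM, with overlap. In these 10 oocytes the medians of Zp3 and Dazl were 11.4 and 442 CPM, against 86.9 and 1332 CPM in the others, while that of Bmp15, another oocyte growth factor, was higher, at 6318 against 3760 CPM. Of the 10, 4 were in IVF set 3, which had the highest Lhx8 of all sets, 48.5 CPM with these oocytes and 28.7 CPM without. Left out of the sets, they changed no call, and the log2 changes of the 6 members then lay between -0.19 and 0.29. At 39 weeks the 2 oocytes with under 1000 CPM of Gdf9 had the higher median of Lhx8, 79.9 CPM against 20.9 CPM in the other 17. Their medians of Nobox (146 against 265 CPM) and Taf4b (4.32 against 9.18 CPM) were the lower.

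At 39 weeks the labels name no donor, so that the 9 Natural and the 10 IVF oocytes were each taken as 1 sample and no test was made. Pooled over the oocytes, Nobox stood at 217 CPM in Natural (95% Poisson interval 214 to 220) and 263 CPM in IVF (261 to 266). Single oocytes ranged from 69.9 to 299.8 CPM (median 223) and from 49.6 to 330 CPM (median 277). Nobox thus stood higher than in the 12-week sets (44.0 to 82.3 CPM) in the pooled level of both groups, a difference between tables that were made separately and was not tested.

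Sohlh2 stood at 6.33 CPM (5.86 to 6.82) in Natural and 18.47 CPM (17.8 to 19.1) in IVF oocytes, and Tbpl2 at 9.24 CPM (8.67 to 9.83) and 23.8 CPM (23.1 to 24.5). These were 2 of the 6 members with counts in both pools to be at least 2-fold apart, where 43.1% of such genes were. Single oocytes overlapped for both: Sohlh2 ran from 0 to 13.1 CPM (median 6.42) in Natural and from 6.50 to 34.7 CPM (median 18.1) in IVF, and Tbpl2 from 4.77 to 14.9 CPM (median 11.1) and from 9.26 to 53.7 CPM (median 18.8). Lhx8 stood at 39.5 CPM in Natural and 21.9 CPM in IVF. The 2 oocytes low in Gdf9 were both Natural and held 73.9 and 85.9 CPM of Lhx8; without them the ratio of IVF to Natural went from 0.554 to 0.952 for Lhx8, from 2.92 to 2.57 for Sohlh2 and from 2.58 to 3.01 for Tbpl2. The ratio went from 1.25 to 0.998 for Taf4b, from 1.21 to 1.10 for Nobox and from 0.629 to 0.676 for Figla.

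Taf4b stood at 9.51 and 11.9 CPM and Figla at 1.06 and 0.664 CPM in the Natural and IVF pools. Sohlh1 had a count of 0 over the Natural pool, which allows up to 0.0278 CPM at 3 counts. In IVF Sohlh1 stood at 0.128 CPM, from 23 counts in 3 of 10 oocytes. This was 4.62-fold the Natural floor of 3 counts, with the IVF counts taken as exact. The Poisson interval of Sohlh1 ran from 0.0814 to 0.193 CPM in IVF and reached 0.0342 CPM in Natural. The 4.62-fold value is therefore not a lower bound. The Poisson intervals cover counting error only and are too narrow if both mates of a read pair were counted: 29.2% of the counts from 1 to 20 in this table were odd.

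**Figure D5:**
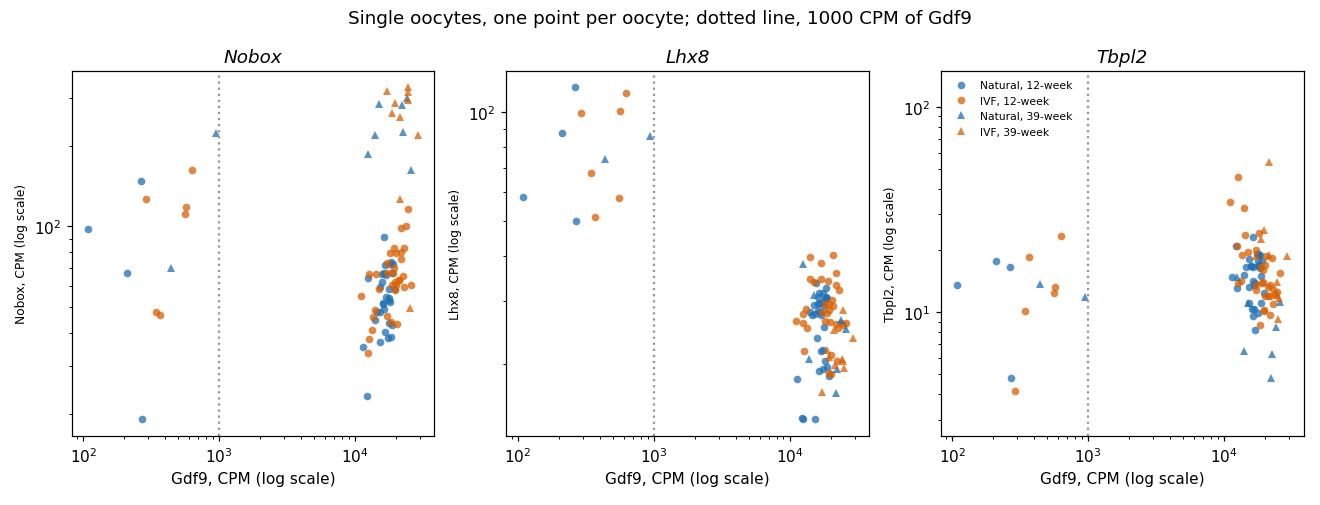
CPM of Nobox, Lhx8 and Tbpl2 against CPM of Gdf9 (log axes) in each single oocyte at 12 weeks (circles) and 39 weeks (triangles); the dotted line is at 1000 CPM of Gdf9. At 12 weeks the 10 oocytes left of the line hold 50.0 to 117 CPM of Lhx8 and the 66 right of it 14.1 to 40.1 CPM.

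In cumulus cells, the granulosa cells around the ovulated oocyte, Taf4b was the 1 member above 1 CPM. Figla and Sohlh2 had a count of 0 in all 10 libraries, and Nobox, Sohlh1, Lhx8 and Tbpl2 reached 0.590, 0.490, 0.158 and 0.199 CPM. Taf4b measured 2.23, 4.99, 8.31, 9.56 and 4.84 CPM in Natural and 14.2, 12.2, 8.85, 1.78 and 4.73 CPM in IVF libraries, a log2 change of 0.31 (SE 0.35, adjusted p = 0.95) with the naming series of the libraries as a covariate. The 1 tested member was not called by edgeR (0.00903% of genes called), its unadjusted p was 0.40, and DESeq2 made no call of it. The 6 libraries with the suffix GC in their names held 9.78 to 22.9 CPM of Gdf9 and the other 4 held 0 to 0.972 CPM; the part of oocyte RNA in the Taf4b values was not tested. A Natural library (replicate 5) carries a name whose fields match those of an IVF oocyte set, and without it the Taf4b change was 0.16 (adjusted p = 0.99).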

How the data were processed

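RNA-seq counts of 7 tables were used, each with 35976 gene names, and 27 names in the ovary tables that had been turned into numbers were left as they were. The authors deposited raw counts per gene; the submitters' processing notes name Trimmomatic 0.32, STAR 2.3.0e, featureCounts 1.5.0, DESeq2 and the mm10 build. Ovary libraries were made with a KAPA mRNA kit and the PGC, oocyte and cumulus libraries with SMART-Seq and Nextera XT. Between 20.9% and 33.3% of the counts from 1 to 20 were odd, so that mates of a pair may have been counted separately.

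Counts were tested with edgeR 4.0.16 (R 4.3.3; TMM, filterByExpr, quasi-likelihood), with Benjamini-Hochberg adjustment over all genes tested and a threshold of 0.05. DESeq2 1.42.0, limma 3.58.1, other scalings and filters, halved counts and leaving out single samples were alternatives. Libraries held 4364500 to 8675190 counts in PGCs, 6995710 to 14830800 in E18.5 ovaries, 2839020 to 43363800 in 12-week ovaries, 18080000 to 38751600 in 39-week ovaries, 839781 to 10879200 and 2820750 to 31126400 in 12- and 39-week oocytes and 2532820 to 6345250 in cumulus cells; 1 count equalled 0.0231 CPM in the deepest and 1.19 CPM in the shallowest library. The sets of 12-week oocytes were read from the library names. The ovary ages were fitted together (6 groups), as were PGCs and oocyte sets (4 groups); age and library batch cannot be told apart. The cumulus fit had the naming series of the libraries as a covariate. Levels per kilobase used exon lengths of the annotation. The test code was tested on simulated data. Cumulus samples at 39 weeks were not analysed here.

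The members, lists and tests were chosen with earlier results of these data known. Named outside the members were genes of each list with an adjusted p below 0.05 (at most the 4 largest changes in each direction), defining markers of each cell type, 4 partners (Tcf3, Ldb1, Taf4 and Tbp) and the 5 genes most like the members at E18.5; Padi6 and Stra8 were named after their values were seen.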

Additional observations from a re-analysis of the deposited data

Results flagged for a closer look

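Of 88 sets of libraries of one gene and group, 17 held 1 library far from the others by Dixon's test, and 7 of the 17 lay below 1 CPM, on a few counts. The test's rate of about 1 in 20 holds for normally distributed values and not for low counts. A set with counts in 1 library alone is always flagged, so the number flagged cannot be set against that rate. In PGCs, Natural library 2 held 15.8 CPM of Figla (next 0.332 CPM), 2.24 CPM of Sohlh1 and 0.498 CPM of Lhx8, where the other Natural libraries held 0 CPM of the latter 2 genes. IVF PGC library 3 held 3.46 CPM of Nobox (next 0.792 CPM) and 0.231 CPM of Sohlh1. IVF PGC library 5 held 1.66 CPM of Lhx8 (next 0.461 CPM), and IVF PGC library 4 was low in Taf4b, at 107 CPM (next 161 CPM).

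In the 12-week ovary, IVF 4, the shallowest library, held 2.11 CPM of Figla (next 0.827 CPM) on 6 counts. Among oocyte sets, IVF set 3 held 48.5 CPM of Lhx8 (next 30.4 CPM), IVF set 1 held 28.0 CPM of Tbpl2 (next 16.0 CPM) and Natural set 4 held 0.0888 CPM of Sohlh1, where the other Natural sets held 0. Among 39-week oocytes, IVF oocyte 8 held 53.7 CPM of Tbpl2 (next 25.1 CPM) and IVF oocyte 7 held 3.55 CPM of Sohlh1 (next 0.496 CPM). In cumulus cells single libraries held 0.590 CPM of Nobox (IVF 3), 0.490 CPM of Sohlh1 (Natural 4), 0.158 CPM of Lhx8 (IVF 5) and 0.199 CPM of Tbpl2 (Natural 2), on 1 or 2 counts each, against 0 in the others of their group.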

How the results depend on the processing

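The counts of members called, both directions together, kept within 1.5 times the reported count in all 67 alternatives that did not leave out a single sample. Where the reported count was 0, as in every test of IVF against Natural, this means only that 0 were called again. By direction the counts did not keep within that limit. Scaled to the germ cell markers, members called lower from E18.5 to 12 weeks went from 6 to 3 in Natural and from 5 to 4 in IVF. On that scale 1 (Taf4b) in Natural and 2 (Taf4b and Tbpl2) in IVF were called higher. Leaving out 1 ovary gave 0 to 2 members called for Natural ovaries from 12 to 39 weeks, and 0 without 12-week Natural ovary 4 or 39-week Natural ovary 5. Of the single genes, 21 values changed sign, 12 of them with germ cell marker scaling, which by construction shifts every gene of a comparison (the median gene to -0.63 at 12 weeks, -0.29 at 39 weeks, and 3.47 and 2.96 from E18.5 to 12 weeks). These 12 were Lhx8 -0.25, Nobox -0.32, Sohlh2 -0.44 and Taf4b -0.10 at 12 weeks, Lhx8 -0.23 and Sohlh1 -0.30 at 39 weeks, and from E18.5 to 12 weeks Nobox 0.24, Taf4b 2.94 and Tbpl2 0.045 in Natural and Nobox 0.64, Taf4b 2.69 and Tbpl2 2.40 in IVF. The cause of the other 9 was not tested. Figla in the 12-week ovary became 0.029 with DESeq2 and 0.49 with the replicate block, Sohlh2 there -7.7e-05 without a filter, and Lhx8 at E18.5 0.023 without the 3 ovaries low in germ cell markers. In oocyte sets Tbpl2 became -0.0070 with DESeq2, -0.0075 with RLE size factors and -0.0021 without a filter, and Taf4b 0.14 with limma. Figla from Natural PGCs to oocytes became -1.20 with library totals alone.

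Leaving out 1 sample turned the sign of these further values, none of them called: in the 12-week ovary Figla (-0.41 to 0.30) and Sohlh2 (-0.28 to 0.33), in the 39-week ovary Lhx8 (-0.0072 to 0.30) and Sohlh2 (-0.38 to 0.11), at E18.5 Lhx8 (-0.28 to 0.17), in PGCs Taf4b (-0.016 to 0.21), in oocyte sets Lhx8 (-0.049 to 0.24), Sohlh2 (-0.045 to 0.24) and Tbpl2 (-0.27 to 0.14), in Natural ovaries from 12 to 39 weeks Lhx8 (-0.38 to 0.25), Sohlh2 (-0.35 to 0.26), Taf4b (-0.43 to 0.10) and Tbpl2 (-0.94 to 0.19), in the IVF effect at 12 weeks minus E18.5 Sohlh1 (-0.36 to 0.20), and in that at 39 minus 12 weeks Lhx8 (-0.63 to 0.0020), Nobox (-0.16 to 0.38), Sohlh2 (-0.49 to 0.12) and Taf4b (-0.23 to 0.27). Taf4b from IVF PGCs to oocytes lost its call without PGC library 1 or oocyte set 2 (adjusted p = 0.071 and 0.057).

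Replicate numbers did not pair the samples: same-numbered deviations correlated at -0.132 to 0.0104 at E18.5, -0.357 to 0.252 at 12 weeks, -0.00621 to 0.399 at 39 weeks and -0.0683 to 0.536 in PGCs. With the replicate block 0 members were called in any of these 4 comparisons, and over all genes 2 were called at E18.5 (891 without), 0 at 12 weeks (1 without), 26 at 39 weeks (45 without) and 0 in PGCs; cumulus cells share too few numbers for such a fit. Over all genes DESeq2 called 1924 at E18.5, 660 and 1240 in 12- and 39-week ovaries (edgeR 1 and 45), 46 in oocyte sets (4) and 25 in cumulus cells (1), and marker scaling called 121, 916 and 5 in the 3 ovary tables. Low counts limited the adult ovary: Figla and Sohlh2 rested on 2 to 44 counts a library at 12 weeks.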
